A study of Ovis aries with 16 samples.

Results

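MIR221, the gene of the microRNA miR-221, and LOC105605445, the long non-coding RNA (lncRNA) gene that contains it, were followed in liver and muscle of female sheep (Ovis aries). They were chosen by name, as the MIR221 entry of the miRNA table and the lncRNA whose gene spans it, and are 2 of 4920 features over the 4 classes of the series (miRNA, lncRNA, snoRNA and snRNA). The tables list 105 miRNAs and 2973 lncRNAs. MIR222, the partner of MIR221, is not listed in the tables used here and was not analysed here. The study profiled small non-coding RNA from Trizol total RNA of 8 ewes, with libraries made with the NEBNext small RNA kit. The 4 control ewes are numbered 98, 131, 132 and 201, and the 4 ewes with prenatal T-treatment (prenatal testosterone excess) are numbered 48, 185, 233 and 255. Liver and muscle of each ewe were sequenced, which gives 16 libraries, 4 in each combination of tissue and treatment. The labels used here name neither the ewes' age nor the dose and time of exposure.

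miR-221 is a short RNA processed from a longer primary transcript that in mammals also carries its partner miRNA, and the pair shares a seed, the stretch near the 5′ end that pairs with target messages. Its best known targets are messages of the cell cycle inhibitor CDKN1B and the receptor KIT. It is known from endothelial cells, vascular smooth muscle and activated stellate cells of the liver, and its level is known to fall as myoblasts differentiate.

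In the RefSeq gene table of assembly ARS-UI_Ramb_v3.0, MIR221 lies within LOC105605445 on chromosome X, and it is the single listed miRNA inside that lncRNA. The protein-coding gene LOC101108192 and the lncRNA LOC121818166 come before the lncRNA, and the pseudogene LOC114111589 and the lncRNA LOC132658750 come after it. ZNF674, a zinc finger gene, is the nearest protein-coding gene on that side. None of these neighbours is in the tables used here. The assembly and the strand setting of the authors' counting are unknown here, so reads of the miRNA strand and of the opposite strand cannot be told apart.

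The deposited values are reads divided by 1 factor per library and class, and the factors appear to be set separately for each tissue. Dividing each column by its smallest value above 0 gave whole reads within 0.001 reads for 100% of 1432 miRNA values and 10585 lncRNA values. The liver libraries held 250251 to 887739 reads over the 4 classes and the muscle libraries 239871 to 1819374. MIR133, a miRNA of striated muscle, took 371628 to 563959 reads-per-million (RPM) of the miRNA reads in muscle and 290.0 to 2274 in liver. The liver miRNAs MIR148A and MIR194 together took 99722 to 146084 in liver and 1865 to 3507 in muscle, so these markers match both tissue labels; MIR122, the defining hepatocyte miRNA, and MIR1 and MIR206 of muscle are not among the 105. The library numbers in the labels fall into 2 separate runs, one with 9 libraries (2 livers and 7 muscles) and one with 7 (6 livers and 1 muscle), so tissue and library number go largely together.

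The lncRNA entry and the miRNA entry followed each other almost read for read. In control livers of ewes 98, 131, 132 and 201, MIR221 had 423, 436, 478 and 585 reads and LOC105605445 had 517, 529, 630 and 745. In prenatal T livers of ewes 48, 185, 233 and 255, MIR221 had 1137, 1362, 308 and 469 reads and LOC105605445 had 1397, 1630, 373 and 573. In control muscles MIR221 had 270, 451, 266 and 138 reads and LOC105605445 had 323, 544, 332 and 171. Every library had more lncRNA than miRNA reads, and a library high in the one was high in the other. In prenatal T muscles MIR221 had 488, 187, 219 and 107 reads and LOC105605445 had 583, 240, 277 and 135. The ratio of lncRNA to miRNA reads was 1.24 ± 0.0359 (SD, n = 16) and lay between 1.19 and 1.32, above 1 in 16 of 16 libraries. These are ratios of read numbers, not of levels per length.

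**Figure D1:**
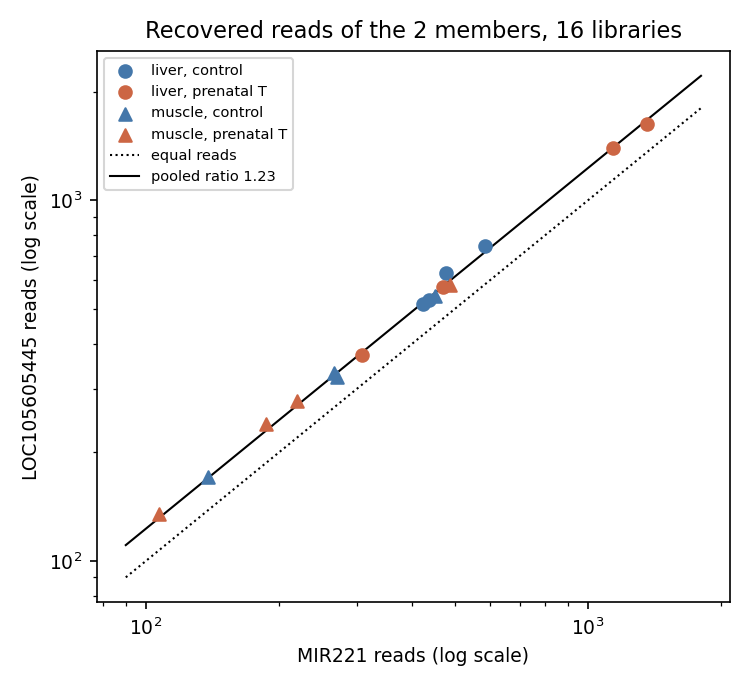
Recovered reads of LOC105605445 (vertical, log scale) against MIR221 (horizontal, log scale) in 16 libraries, with marker shape for tissue and colour for treatment. The dotted line marks equal reads and the solid line the pooled ratio of 1.23; all points lie above the dotted line and close to the solid one.

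Pooled over the libraries, LOC105605445 had 8999 reads and MIR221 7324, a surplus of 1675. The surplus was 28 to 268 reads per library, or 19.0% ± 2.31 (SD, n = 16) of the lncRNA reads. MIR221 reads came to 81.4% of the lncRNA reads pooled, with 75.9% to 83.7% in single libraries, and the 95% Wilson interval of a library held the pooled value in 13 of 16. The 3 exceptions were the livers of ewes 132, 201 and 185. The interval treats MIR221 reads as a part of the lncRNA reads, which was not tested. The plot of reads of both genes shows the same near-constant proportion from 107 to 1362 MIR221 reads, in both tissues. Whether the tables count the same molecules in both entries was not tested, since they hold no read positions.

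The ratio did not differ detectably between the groups. In liver it was 1.26 ± 0.0487 in controls and 1.21 ± 0.0139 after prenatal T (SD, n = 4 each), a difference of −0.042 (exact two-sided permutation test, p = 0.171, adjusted over 3 comparisons 0.343). In muscle it was 1.22 ± 0.0251 in controls and 1.25 ± 0.0389 after prenatal T, a difference of 0.029 (exact permutation test, p = 0.229, adjusted 0.343). The smallest p that 4 against 4 can give is 0.0286. Between liver and muscle of the same ewe the mean difference was −0.0011 (exact sign-flip permutation test over 8 ewes, p = 0.977, adjusted 0.977).

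Among the 68 miRNAs above 0 in all 16 libraries, the ratio of LOC105605445 to MIR221 varied least, with a coefficient of variation (CV, the SD as a percent of the mean) of 2.90%. The next were MIR99A at 28.1% and MIR191 at 28.3%. Read the other way, of 105 lncRNAs set against MIR221 LOC105605445 also varied least, and the next was LOC114116882 at 29.1%. These orders are descriptions over the same 16 libraries and carry no test. If the same reads enter both entries, which was not tested, the first place in both orders is built in.

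**Figure D2:**
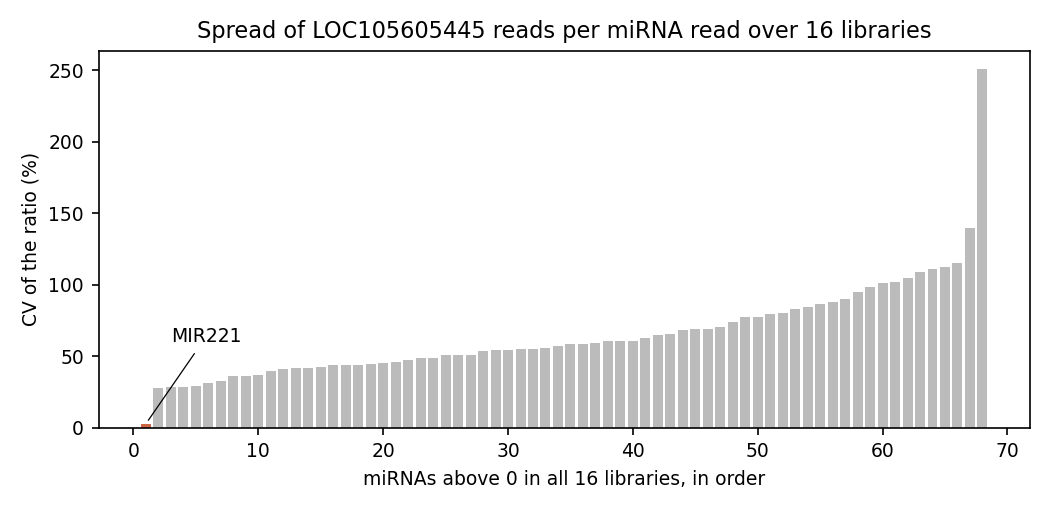
Each bar is the CV (percent, from 0) of the ratio of LOC105605445 reads to the reads of 1 of 68 miRNAs over 16 libraries, in rising order, with MIR221 in orange. The MIR221 bar is at 2.90% and the next, MIR99A, at 28.1%.

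Other lncRNAs that hold a miRNA did not all have reads in proportion to it. The reference table places listed miRNAs inside 8 lncRNAs, 7 of them with a single miRNA, and 4 of the 8 lncRNAs had over 100 reads. Only 1372 of the 2973 lncRNAs matched that table by symbol, so hosts among the others could not be found. Strand was not compared. LOC105611269, which holds MIR181A-2, had 1.09 ± 0.0229 reads per miRNA read in liver and 1.04 ± 0.00817 in muscle (SD, n = 8 each), a CV of 2.92% over all libraries. LOC105602212, which holds MIR125B, had 0.468 ± 0.0863 in liver and 0.198 ± 0.0452 in muscle. LOC105606646, which holds 49 listed miRNAs, had 2829 reads in all. Per read of MIR379, the one of them with the most reads, it had 0.369 ± 0.0985 in liver and 1.12 ± 0.343 in muscle. LOC114114896, which holds MIR143, had 11 reads in all against 261926 of the miRNA. The pair of MIR221 and LOC105605445 thus resembled that of MIR181A-2 in spread, while the other named hosts differed widely. MIR181A-2 has a near-identical copy, MIR181A-1, so how its reads were assigned is uncertain.

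The constant proportion did not show in the deposited values. Their ratio ran from 0.843 to 1.58 (1.24 ± 0.173, SD, n = 16), and in 1 of 16 libraries it fell below 1. That library was the liver of ewe 98, with a deposited value of 562 for MIR221 and 474 for LOC105605445, although its reads were 423 and 517. The value of 1 lncRNA read in units of 1 miRNA read was 0.690 in that liver and up to 1.29 in the liver of ewe 48. The plot of both ratios by library shows the deposited ratio scattering about the read ratio.

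**Figure D3:**
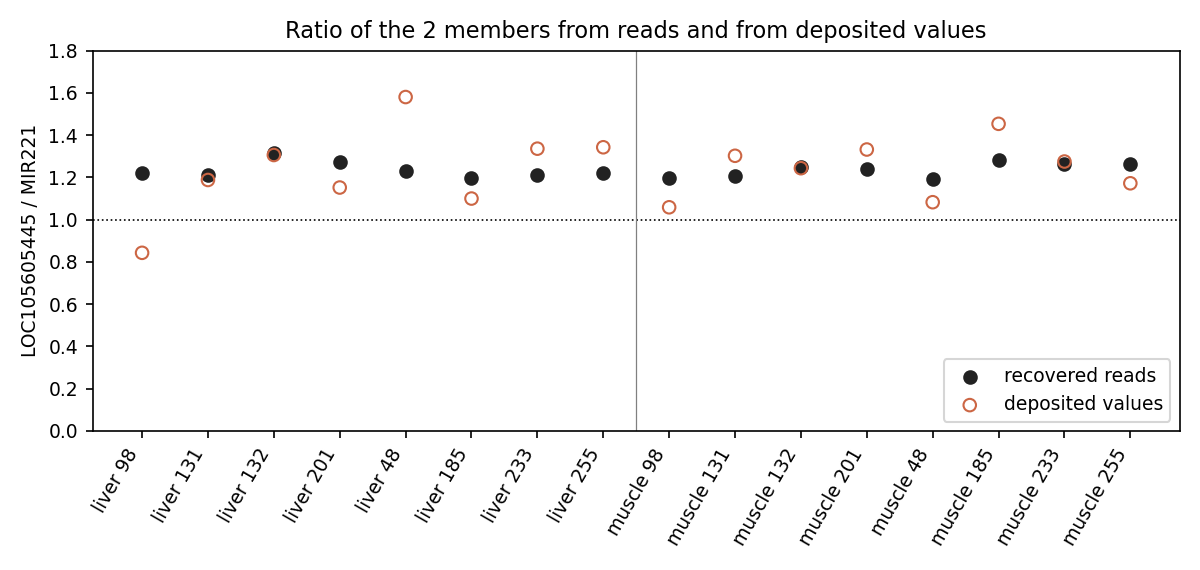
Ratio of LOC105605445 to MIR221 in each of 16 libraries (horizontal), from recovered reads (filled) and from the deposited values (open), on a linear axis from 0 with a dotted line at 1. The filled points stay between 1.19 and 1.32 and the open points range from 0.843 to 1.58.

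As shares of the 4 classes, both entries moved together across ewes within each tissue. In liver, Pearson's r of the log2 shares was 0.993 (8 ewes, exact permutation p = 4.96e-05, adjusted over the 2 tissues 4.96e-05) and Spearman's rho was 0.976 (exact permutation p = 0.000397). Without the livers of ewes 185 and 255, the farthest from the median, r was 0.935 (exact permutation p = 0.00278). In muscle r was 0.997 (8 ewes, exact permutation p = 2.48e-05, adjusted 4.96e-05), rho was 1 (exact permutation p = 4.96e-05), and r without ewes 131 and 201 was 0.993 (exact permutation p = 0.00139). Both shares have the same denominator, and MIR221 lies inside LOC105605445. If the same reads enter both entries, which was not tested, a high r is built in. These p-values therefore cannot show that separate transcripts moved together. On the deposited values the liver r was 0.813 (8 ewes, exact permutation, adjusted p = 0.0319) with a rho of 0.452 (exact permutation p = 0.267), and without the same pair of livers r was 0.0142. That relation in the deposited liver values therefore rests on those 2 libraries. The muscle r was 0.928 (8 ewes, exact permutation, adjusted p = 0.00203) with a rho of 0.786, and without ewes 131 and 201 it was 0.791 (exact permutation p = 0.0708).

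MIR221 was a miRNA of middle rank in both tissues, and LOC105605445 was among the lncRNAs with the most reads. In liver, MIR221 ranked 33rd to 39th of the 105 miRNAs per library, with 1570.3 ± 493 RPM of miRNA reads (SD, n = 8). It stood between MIR379 at 1878 ± 368 and MIR107 at 1447 ± 316, whose ranges overlap its own. In muscle it ranked 34th to 38th per library, with 609 ± 221.9 RPM of miRNA reads, between MIR30B at 647 ± 45.5 and MIR10A at 570.4 ± 114.3. Those neighbours were also within its spread. LOC105605445 ranked 9th to 16th of 2973 lncRNAs in liver and 13th to 20th in muscle, with 10321 ± 2772 and 738 ± 279 RPM of lncRNA reads. LOC114110111 led in liver with 36.0% of lncRNA reads, and LOC105604459 led in muscle with 53.8%. LOC105603743 was also abundant in some libraries, with a mean of 342 reads per MIR221 read over the 16 libraries (0.029 to 1075). For LOC105604459 the mean was 513 (0.18 to 1669).

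Set against all 4 classes, MIR221 stood higher in liver than in muscle in both treatment groups. In RPM of the 4 classes, MIR221 was 1251, 1153, 1026 and 1171 in control livers of ewes 98, 131, 132 and 201 and 1281, 2237, 1231 and 968 in prenatal T livers of ewes 48, 185, 233 and 255. In muscle of the same ewes it was 300.1, 483, 284 and 169 in controls and 268, 201, 246 and 446 after prenatal T. The lowest liver exceeded the highest muscle. On this scale most miRNAs were called higher in liver (limma adjusted p below 0.05), 71 of 77 in control ewes and 70 of 79 in prenatal T ewes. LOC105605445 on the same scale was 1528, 1398, 1352 and 1491 in control livers and 1574, 2678, 1490.5 and 1182 in prenatal T livers. It was 359, 583, 355 and 209 in control muscles and 320.4, 258, 311 and 563 in prenatal T muscles. Its tissues did not overlap either, where 66 of 134 lncRNAs were called higher in liver in control ewes and 57 of 119 in prenatal T ewes. A called share is another measure than a lack of overlap, and the number of other features without overlap was not counted. The lack of overlap is therefore not shown to be particular to these genes. The liver of ewe 185 was the highest library for both genes. Within a tissue the control and prenatal T ranges overlapped for both genes. In bulk samples such as these, fewer cells of a type and less RNA per cell cannot be told apart.

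**Figure D4:**
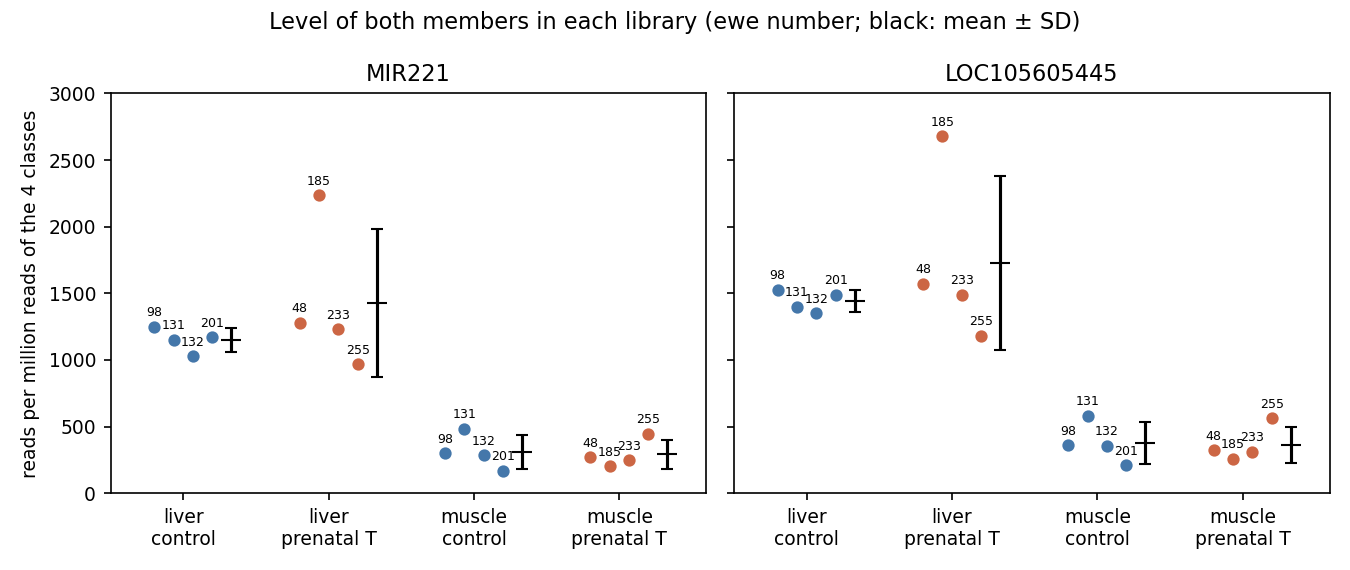
RPM, relative to the reads of the 4 classes (vertical, linear from 0) of MIR221 and LOC105605445 in every library, by tissue and treatment; points carry the ewe number and the black bars are mean ± SD of 4. The liver of ewe 185 stands at 2237 and 2678, and all muscle points lie below all liver points.

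In liver, no difference between prenatal T and control ewes was detected for either gene. The normalised reads (deposited values) of MIR221 were 562, 566, 483 and 569 in controls (545 ± 41.7, SD, n = 4) and 559, 1162, 507 and 416 after prenatal T (661 ± 339, SD, n = 4). Ewe 185 was above all other livers, and the other prenatal T livers lay around the controls. The log2 fold change on the log2(value + 1) scale was 0.16 (SE 0.28, 95% interval −0.44 to 0.77, limma adjusted p = 0.959), and −0.15 without the liver of ewe 185. LOC105605445 was at 474, 673, 630 and 656 in controls (608 ± 91.2) and 884, 1278, 677 and 559 after prenatal T (850 ± 316, SD, n = 4 each). Its log2 fold change was 0.42 (SE 0.29, 95% interval −0.22 to 1.07, limma adjusted p = 0.890), and 0.20 without that liver. In liver 0 of 81 miRNAs (0%) and 0 of 121 lncRNAs (0%) passed the limma test at an adjusted p of 0.05, with 0 of each at an unadjusted p below 0.05, and edgeR and DESeq2 on the recovered reads also called 0.

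The liver of ewe 185 was not high in most miRNAs. Its MIR221 share of 2743 RPM of miRNA reads had a 95% Wilson interval of 2602 to 2893, which covers counting error only. Of the 81 miRNAs tested in liver 13 had their highest value in that library, where the other livers had 4 to 21, and of the 121 lncRNAs 3, where the others had 10 to 29. MIR194 at 12437 against 7982 to 10552 and MIRLET7I at 12004 against 9532 to 11325 normalised reads were also above all other livers. The endothelial markers other than MIR221 (MIR10B, MIR23A and MIR27A) summed to 15078 RPM of miRNA reads there, within the 12305 to 17584 of the other livers. The summed mesenchymal markers MIR143, MIR199A and MIR21 came to 98270, within 84576 to 139781. MIR150, a lymphocyte miRNA, came to 1551, within 878 to 1844. MIR16B, the only 1 of 4 names on the erythroid list that was found, came to 4872, within 3000 to 6074. MIR451, MIR144 and MIR486 were not found under those names, so red cell content was not gauged. MIR148A and MIR194 summed to 133927, within 99722 to 146084. MIR133 was at 290.0, below the 353 to 2274 of the other livers. MIR126, the defining endothelial miRNA, is not among the 105, and the part of cell makeup in the value of this library was not tested. 

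In muscle, no difference between the treatment groups was detected either. MIR221 was at 266, 367, 229 and 149 normalised reads in controls (253 ± 90.6) and 239, 168, 224 and 281 after prenatal T (228 ± 46.7, SD, n = 4 each). Its log2 fold change was −0.098 (SE 0.26, 95% interval −0.66 to 0.46, limma adjusted p = 0.897). LOC105605445 was at 282, 478, 285 and 198 in controls (311 ± 119) and 259, 245, 285 and 330 after prenatal T (280 ± 37.4, SD, n = 4 each). Its log2 fold change was −0.088 (SE 0.28, 95% interval −0.70 to 0.53, limma adjusted p = 0.966). The prenatal T values of both genes lay inside the control range. In muscle 0 of 64 miRNAs (0%) passed with limma, 5 of them at an unadjusted p below 0.05, and edgeR and DESeq2 also called 0. Of the muscle lncRNAs 4 passed (3.51%), and LOC105605445 was not among them.

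The prenatal T effect did not differ detectably between the tissues. The effect in liver minus that in muscle was 0.26 in log2 for MIR221 (SE 0.41, limma adjusted p = 0.841) and 0.51 for LOC105605445 (SE 0.41, limma adjusted p = 0.905). Without the liver of ewe 185 these differences were −0.051 and 0.29, and without the control muscle of ewe 131 that of LOC105605445 was 0.28. With limma 0 of 76 miRNAs (0%) and 0 of the lncRNAs (0%) passed this test, with 2 and 5 at an unadjusted p below 0.05; edgeR and DESeq2 were not run for it.

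Whether MIR221 differed between liver and muscle depended on the scale. Scaled by the median ratio to all miRNAs, its log2 difference (liver over muscle) in control ewes was −0.21 (SE 0.25, 95% interval −0.76 to 0.34, limma adjusted p = 0.459). In prenatal T ewes it was 0.21 (SE 0.29, 95% interval −0.42 to 0.85, limma adjusted p = 0.538). MIR221 was thus among the minority of miRNAs with no call, since 58 of 76 miRNAs (76.3%) differed in control ewes (42.1% higher and 34.2% lower in liver) and 47 of 75 (62.7%) in prenatal T ewes (36% higher and 26.7% lower). With the 4-class reads as the scale, the log2 difference was 1.98 in control ewes (limma adjusted p = 1.24e-05) and 2.29 in prenatal T ewes (limma adjusted p = 3.73e-06). That scaling moved the median of all miRNAs from 0.13 to 2.33 and from 0.20 to 2.29, and MIR221 lay below that median in control ewes and close to it in prenatal T ewes on both scales.

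Relative to other lncRNAs, LOC105605445 was higher in liver in both treatment groups, with a control value close to the threshold. Its log2 difference was 1.37 in prenatal T ewes (SE 0.31, 95% interval 0.68 to 2.06, limma adjusted p = 0.00433), where 33 of 119 lncRNAs (27.7%) were called higher in liver, 22.7% lower and 60 (50.4%) in either direction. In control ewes it was 0.79 (SE 0.32, 95% interval 0.098 to 1.49, limma adjusted p = 0.0470), where 39 of 127 (30.7%) were called higher, 31.5% lower and 79 (62.2%) in either direction. The control value missed the threshold with edgeR (0.77, adjusted p = 0.0517) and DESeq2 (0.69, adjusted p = 0.0565), and without any of 6 of the 8 libraries, the livers of ewes 131, 132 and 201 and the muscles of ewes 98, 132 and 201 (limma adjusted p up to 0.123). The tissue difference was not shown to depend on treatment, since the test of that difference on the deposited values gave the adjusted p of 0.905 above. Scaled to the 4 classes its differences were 2.02 and 2.25, close to those of MIR221, and the median of all lncRNAs moved from −0.047 to 1.26 and from 0.074 to 1.01.

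Within single ewes both genes took a larger share of the 4-class reads in liver than in muscle. MIR221 was 4.17, 2.38, 3.61 and 6.93 times higher in liver in control ewes 98, 131, 132 and 201, and 4.78, 11.1, 5.003 and 2.17 times in prenatal T ewes 48, 185, 233 and 255. The geometric mean was 4.41-fold for MIR221 and 4.41-fold for LOC105605445, higher in 8 of 8 ewes for both (exact sign-flip permutation test, p = 0.0078125, the smallest that 8 ewes can give). A higher liver value was common to most miRNAs on this scale, with 71 of 77 called higher in control ewes and 70 of 79 in prenatal T ewes. As shares of each gene's own class the folds parted, 2.64-fold (1.24 to 6.55) for MIR221 and 14.5-fold (7.24 to 33.6) for LOC105605445, again in 8 of 8 ewes. How many other features were higher in liver in 8 of 8 ewes was not counted for either share. The 8 of 8 is therefore not shown to be particular to these genes. Leaving out MIR133 and MIR26A among miRNAs lowered the mean log2 of MIR221 from 1.40 ± 0.761 to 0.35 ± 0.647 (SD, n = 8), higher in 6 of 8 ewes (exact permutation p = 0.172). Without LOC105604459 and LOC114110111 among lncRNAs, that of LOC105605445 went from 3.85 ± 0.767 to 3.39 ± 0.740 (exact permutation, adjusted p = 0.0156). LOC105603743, with 0.029 to 1075 reads per MIR221 read (mean 342 over all libraries), stayed in that lncRNA denominator. The 3.39 can therefore still depend on LOC105603743, which was not tested. Scaled by the median ratio, the log2 difference of LOC105605445 was 0.79 in control ewes and 1.37 in prenatal T ewes. In ewes 98, 48 and 255, whose liver and muscle libraries come from the same range of library numbers, the 4-class folds were 4.17, 4.78 and 2.17 for MIR221 and 4.26, 4.91 and 2.10 for LOC105605445.

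**Figure D5:**
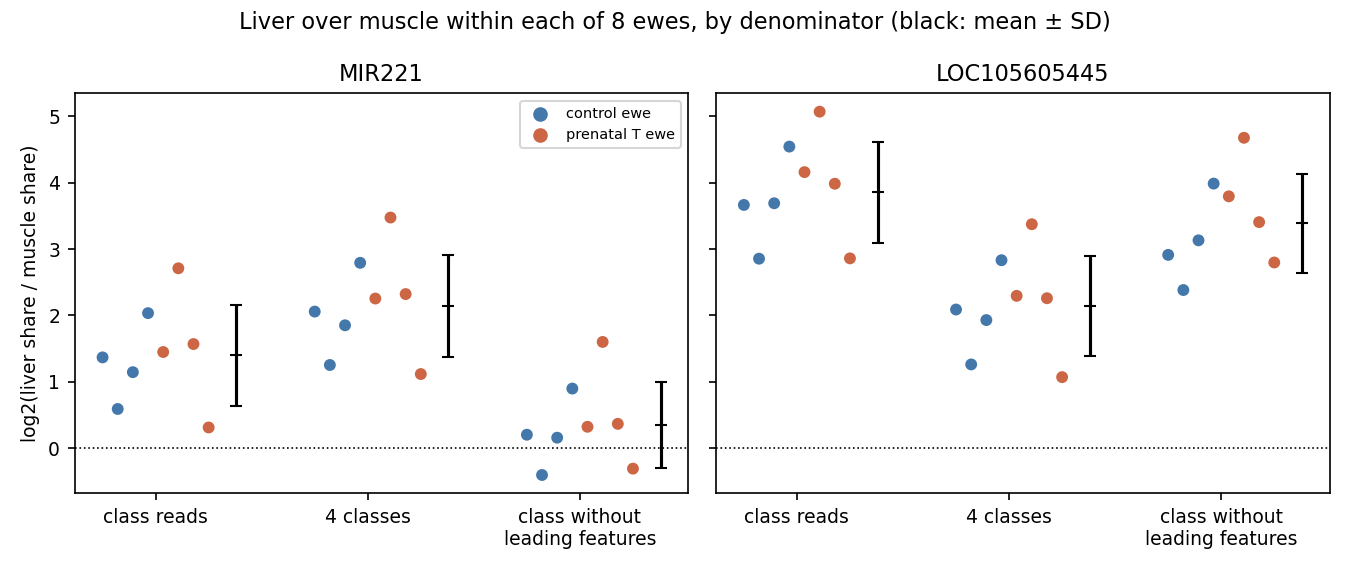
Log2 ratio of the liver share to the muscle share (vertical) in each of 8 ewes for MIR221 and LOC105605445. The 3 denominators (horizontal) are reads of the class, of the 4 classes, and of the class without the features left out above. Points are coloured by treatment and the black bars are mean ± SD; the genes coincide at 2.14 with the 4 classes and part with the class, at 1.40 and 3.85.

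The marker miRNAs of cells in which miR-221 is known did not all point one way between the tissues. The 3 endothelial markers other than MIR221 summed to 12305 to 17584 RPM of miRNA reads in liver and 8535 to 11152 in muscle. As shares of miRNA reads they went in different directions. MIR10B averaged 271 RPM in control livers and 3637 in control muscles, while MIR27A averaged 10263 and 3663. Scaled by the median ratio, all 4 endothelial entries, MIR221 among them, were lower in liver in control ewes. Of these, 2 (MIR10B and MIR23A) were called lower. The median log2 difference was −0.62 beside 0.13 for all miRNAs tested. In prenatal T ewes 2 of the 4 were higher and 2 lower in liver. There 0 were called higher and 1 (MIR10B) lower, with a median of −0.13 beside 0.20. The summed mesenchymal markers were 84576 to 139781 RPM of miRNA reads in liver and 18199 to 37257 in muscle. Scaled by the median ratio, 2 of these 3 were called higher in liver in each treatment group. Their median log2 difference was 0.51 in control ewes, where 1 was lower, and 1.10 in prenatal T ewes. MIR150 was at 878 to 1844 RPM in liver and 1888 to 5312 in muscle, and MIR16B at 3000 to 6074 and 2070 to 4739. By the median ratio MIR16B was instead lower in liver, at −0.51 in control ewes (called) and −0.56 in prenatal T ewes (not called). MIR150 was lower at −2.83 and −2.57, both called. The part of these markers in the tissue difference was not tested.

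Across the 16 libraries, with the mean of each group removed, MIR194, a hepatocyte and intestinal miRNA, had the pattern most like MIR221. Pearson's r was 0.830 over all libraries among 63 miRNAs compared, 0.777 in liver and 0.919 in muscle, and 0.844 without the liver of ewe 185. MIRLET7I followed at 0.736, then MIR21, an abundant stromal miRNA, at 0.528, MIR150 at 0.468 and MIR25 at 0.392. Without the liver of ewe 185 these were 0.695, 0.527, 0.324 and 0.223, and MIR218A, at 0.362, came before MIR150 and MIR25, so the places of the last pair rest on that library. For LOC105605445 the most alike of 81 lncRNAs were LOC114110111 at 0.706, LOC114113616 at 0.601 and LOC105614707 at 0.473. Without that liver they were at 0.789, 0.459 and 0.437, and LOC105616014 went from 0.391 to 0.456. These values share libraries and size factors and are given as descriptions.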

How the data were processed

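Small RNA of 16 libraries from 8 ewes was analysed. The deposited tables hold normalised reads (a signal: reads divided by a factor per library and class, apparently set within each tissue). Per the submitters' processing notes, cutadapt 3.2, STAR 2.6.0c and featureCounts 1.6.1 were used; their roles, the build, the annotation and the strand setting are not stated there. Whole reads were recovered by dividing each column by its smallest value above 0. Within a tissue, log2(value + 1) of features with a mean of at least 5 was tested with limma 3.58.1 (variance trend, Benjamini-Hochberg within class). Between tissues, recovered reads scaled by the median of ratios were used, since the deposited factors appear to be set per tissue. edgeR 4.0.16 and DESeq2 1.42.0 on recovered reads were alternatives. Both genes passed every filter on low values. Of the symbols, 1372 of 2973 lncRNAs and 105 of 105 miRNAs matched the reference table. Exact permutation tests used scipy 1.17.1. The labels give liver and muscle of 1 ewe the same number, so they are paired; correlations of their deviations were −0.174 to 0.441 for miRNAs and −0.213 to 0.592 for lncRNAs. Scripts were tested on simulated data. Genes and lists were chosen with earlier results of these data known. Named were both genes, their neighbours, the listed markers, the 5 miRNAs and 3 lncRNAs most alike, the miRNAs adjacent in rank, and up to 3 other host lncRNAs with the most reads. LOC114114896, a host with few reads, was named outside this rule. MIR99A, MIR191, MIR218A, LOC114116882, LOC105616014, LOC105603743 and the leading lncRNAs were named after their values were seen. One further list of miRNAs is not reported here.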

Additional observations from a re-analysis of the deposited data

Results flagged for a closer look

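The lowest of the 4 control livers for MIR221, that of ewe 132 at 483 normalised reads, stood apart from the other 3 at 562 to 569. Its gap to the nearest, as a share of the group's range, was 0.919, above Dixon's critical value at the 95% level. It was the single such value in 40 groups checked, and chance gives about 1 in 20. In RPM of the 4-class reads the same liver was at 1026, beside 1153 to 1251, and did not pass the critical value.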

How the results depend on the processing

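Of 255 alternatives over 17 results, 229 kept direction and side of the threshold, 13 reversed direction (1 of them with a call gained), 11 lost a call and 2 gained one in the same direction; causes were not tested. Scaling to the 4 classes gave MIR221 1.98 in control ewes and 2.29 in prenatal T ewes (liver over muscle). Without MIR133 and MIR26A its share gave 0.35. LOC105605445 in control ewes lost its call with edgeR (0.77), DESeq2 (0.69), no filter (0.79, adjusted p = 0.290) and, chosen after seeing the data, no variance trend (0.79, adjusted p = 0.0658), and ran from 0.61 to 1.005 with 1 library left out (limma adjusted p from 0.00690 to 0.123). Leaving out 1 library gave MIR221 −0.51 to −0.018 in control ewes (called without the muscle of ewe 201, limma adjusted p = 0.0463) and −0.026 to 0.41 in prenatal T ewes. For prenatal T against control it gave MIR221 −0.15 to 0.34 in liver and −0.33 to 0.11 in muscle, LOC105605445 −0.28 to 0.14 in muscle, and a difference between tissues of −0.051 to 0.49 for MIR221. For LOC105605445 that difference ran from 0.28 to 0.70. Directions turned without the liver of ewe 185 and, in muscle, without ewe 131 or (MIR221) ewe 185. The ratio difference within ewes ran from −0.011 to 0.011, without ewes 132 and 185. That between treatments ran from −0.057 to −0.022 in liver (the latter without ewe 132) and from 0.018 to 0.048 in muscle (without ewes 185 and 48; exact permutation, adjusted p = 0.484 and 0.171). With the replicate block (ewe), MIR221 was −0.21 in control and 0.21 in prenatal T ewes, LOC105605445 was 0.79 (limma adjusted p = 0.0476) and 1.37, and the effect differences were 0.26 and 0.51; the block changed no call of either gene. The 4 muscle lncRNA calls became 1 without a variance trend and 0 with 1 spread estimated over all 16 libraries, and 1 to 4 with 1 library left out. The 0 lncRNA calls for the difference between tissues became 2 without a filter and 3 without the liver of ewe 98. Without a filter lncRNA calls between tissues went from 79 to 133 and from 60 to 98, and miRNA calls in prenatal T ewes from 47 to 72 with 4-class scaling. With 107 to 1362 MIR221 reads a library, and 4 ewes a group, the intervals of the treatment effect stay as wide as given.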
